A study of Mus musculus with 2 samples.

Results

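A set of 10 genes of the cartilage matrix was followed in GFP+ cells of mouse subcutaneous fat with and without an intact Sox9 gene. They were Col2a1, Col9a1, Col9a2, Col9a3, Col11a1, Col11a2, Acan, Comp, Hapln1 and Matn3, chosen by symbol as known or proposed targets of Sox9, and all 10 were found among the 24862 entries of the gene table. The RNA came from cells of the stromal vascular fraction, the non-adipocyte cells that collagenase frees from white fat, of the inguinal depot of male mice aged 3 weeks. There were 2 libraries, 1 of Sox9 PreASKO mice, also titled KO, and 1 of Sox9 floxed mice, also titled WT. Both groups had received doxycycline on postnatal day 1, and the series' design text equates GFP+ with Pref-1+ cells. That text gives a pool of 6 mice without saying whether this is per genotype, and the labels name neither the promoter that drives recombination nor the floxed exons. With 1 library a group there is no test between genotypes, and differences between mice cannot be seen.

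Sox9 is the transcription factor that switches on cartilage matrix genes, and it does so together with Sox5 and Sox6. In cartilage, type II collagen forms the bulk of the fibrils, type XI chains start and thin them, and type IX molecules sit on their surface. Aggrecan, encoded by Acan, is the large proteoglycan that holds water, and the link protein encoded by Hapln1 fastens it to hyaluronan. In fat, Sox9 is known from preadipocytes, where it lies downstream of Pref-1 and restrains differentiation into adipocytes.

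The 2 libraries held 29172653 counts in PreASKO and 37705236 in floxed, and levels are given in CPM, counts scaled to a common library size by these totals. Each value in parentheses is an exact 95% interval, and it covers the error of counting reads and nothing else. Sox9 itself had 73 counts in PreASKO and 228 in floxed, or 2.50 and 6.05 CPM, a ratio of 0.414 (0.314 to 0.541), or 0.729 when scaled to the summed stromal matrix markers in place of the library total. Any exon left in place by the recombination still adds to the Sox9 count, so this checks the deletion only in part. Dlk1, which encodes Pref-1, stood at 24.0 CPM in PreASKO and 28.2 CPM in floxed.

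The promoters are shown for 3 of the genes that differ in how they stood between the libraries. Hapln1 was lower in PreASKO, Col11a1 was within counting error of equal levels and Col9a2 was higher. Each sequence is the part of RefSeq's promoter window in GRCm38.p6 that lies before the RefSeq start of the gene, on the plus strand, at chr13:89540386-89540528 (143 bases), chr3:114030290-114030478 (189 bases) and chr4:121039316-121039565 (250 bases). Capitals mark ACAAT, the core of Sox-type letters, or GGGCGG, the GC box, on either strand.
Hapln1: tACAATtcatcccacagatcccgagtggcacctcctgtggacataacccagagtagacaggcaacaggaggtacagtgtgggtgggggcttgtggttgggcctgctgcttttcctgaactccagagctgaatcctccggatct
Col11a1: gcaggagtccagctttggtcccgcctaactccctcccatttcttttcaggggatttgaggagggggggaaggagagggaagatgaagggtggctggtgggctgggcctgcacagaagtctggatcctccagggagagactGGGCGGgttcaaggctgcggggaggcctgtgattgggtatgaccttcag
Col9a2: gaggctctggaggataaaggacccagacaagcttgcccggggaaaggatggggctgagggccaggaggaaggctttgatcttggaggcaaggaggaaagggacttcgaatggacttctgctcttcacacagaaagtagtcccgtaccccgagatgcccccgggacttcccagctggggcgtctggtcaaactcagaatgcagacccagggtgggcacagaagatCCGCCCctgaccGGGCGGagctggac

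Promoter entries matched 7 of the 10 genes, in 8 windows of the full 250 bases before the listed start. Col2a1, Comp and Col9a3 had no entry and were not searched, and Col9a1 was entered more than once. The Sox-type letters AACAAT and ACAAAG, searched on both strands, were found in 0 of the 8 windows, against 24.0% of all 32851 windows that held either. ACAAT, which lies within AACAAT, was in 1 of the 8 windows, that of Hapln1, and in 27.7% of all windows. GGGCGG was in 5 of the 8 and in 32.7% of all. ACAAT and GGGCGG were searched after the first letters had no match. These are matches of letters in a short window, and the known Sox9 enhancers of cartilage genes mostly lie elsewhere, as in the first intron of Col2a1.

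The 10 genes did not stand on one side. Col2a1 and Hapln1 were over 2-fold lower in PreASKO, Col9a2 and Col9a3 were over 2-fold higher, and Col11a1, the most abundant by counts, was within counting error of equal levels. Comp and Col11a2 were lower by less than 2-fold. Acan, Col9a1 and Matn3 had 5 counts or fewer in either library.

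**Figure D1:**
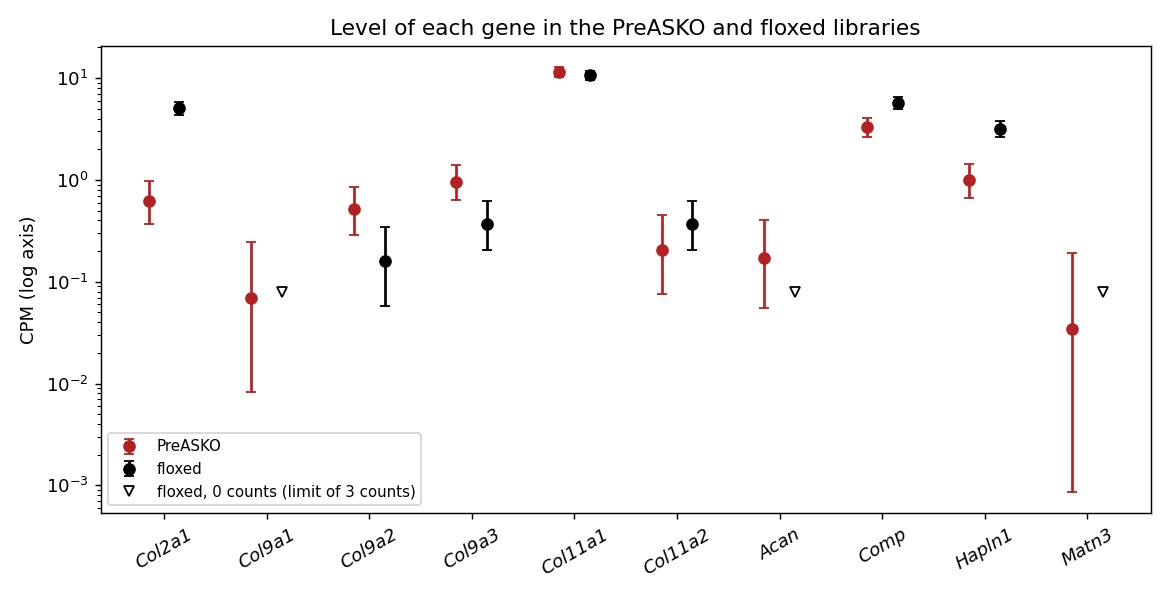
Level in CPM (log axis) of each of the 10 genes in the PreASKO library (red) and the floxed library (dark), with exact 95% Poisson intervals as bars; open triangles mark 0 counts, drawn at the limit of 3 counts. Col11a1 is highest in both libraries, at 11.5 CPM in PreASKO and 10.7 CPM in floxed, and the bars of Col2a1 do not meet.

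Col2a1 encodes the chain of type II collagen, the main fibril of cartilage and the best known target of Sox9. It lies on chromosome 15 from 97975602 to 98004724 in GRCm38. It had 18 counts in PreASKO and 190 in floxed, or 0.617 CPM (0.366 to 0.975) and 5.04 CPM (4.35 to 5.81). The 2 intervals are far apart, and the gene was 8.17-fold lower in PreASKO (5.03 to 14.1). Among the 18911 genes whose larger count was 10 or more, 3.65% were as low or lower, and among the 12982 whose larger count was 100 or more, 0.732%. All counts of Col2a1 were repeat-distributed, the column the authors keep apart from raw counts, and it has 3 RefSeq transcripts. With those counts alone the ratio was 0.119 (0.0690 to 0.193).

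Type XI collagen is a minor fibrillar collagen that joins type II in the same fibril, and Col11a1 and Col11a2 encode 2 of its chains. Col11a1, on chromosome 3 from 114030479 to 114220756, had 336 counts in PreASKO and 404 in floxed, or 11.5 CPM (10.3 to 12.8) and 10.7 CPM (9.70 to 11.8). The intervals overlap, and the ratio was 1.07 (0.927 to 1.25). Raw counts alone gave 0.986 (0.638 to 1.51) and repeat-distributed counts alone gave 1.06 (0.906 to 1.24). Col11a2, on chromosome 17 from 34038919 to 34066684, had 6 counts in PreASKO and 14 in floxed, a ratio of 0.554 (0.175 to 1.53). At this depth a difference of Col11a2 was not detectable. The authors' deposited table gives Col11a2 a fold of 0.430, past 2-fold, and Col11a1 one of 1.05. Col11a1 made up 62.7% of the counts of the 10 genes in PreASKO and 41.9% in floxed, while Col2a1 made up 3.36% in PreASKO and 19.7% in floxed.

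Type IX collagen is built from the products of Col9a1, Col9a2 and Col9a3 and decorates the type II fibril. Col9a3, on chromosome 2 from 180598102 to 180622192, had 28 counts in PreASKO and 14 in floxed, or 0.960 and 0.371 CPM, a ratio of 2.58 (1.32 to 5.31). Col9a2, on chromosome 4 from 121039566 to 121055325, had 15 counts in PreASKO and 6 in floxed, or 0.514 and 0.159 CPM, a ratio of 3.23 (1.19 to 10.2). Both ratios rest on few reads, their intervals are wide, and with a pseudocount of 1 CPM in both libraries they were 1.43 for Col9a3 and 1.31 for Col9a2, inside 2-fold. Col9a1, on chromosome 1 from 24177589 to 24252738, had 2 counts in PreASKO and 0 in floxed, too few for a ratio. Summed over the 3 chains, there were 45 counts in PreASKO and 20 in floxed, a ratio of 2.91 (1.68 to 5.20). The last 234 bases of Col9a3 overlap Tcfl5 on the other strand, which had 3 counts in PreASKO and 2 in floxed.

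Hapln1, the link protein gene, on chromosome 13 from 89540529 to 89611832, had 29 counts in PreASKO and 119 in floxed, or 0.994 CPM (0.666 to 1.43) and 3.16 CPM (2.61 to 3.78). The intervals do not meet, and the gene was 3.18-fold lower in PreASKO (2.10 to 4.94). All its counts were repeat-distributed, and a pseudogene, Gm8546, lies within it on the other strand. Acan, on chromosome 7 from 79053226 to 79115099, had 5 counts in PreASKO and 0 in floxed, where the exact interval ends at 0.0978 CPM. Against a floor of 3 counts for the floxed library, Acan was 2.15-fold higher in PreASKO, a value set by that floor (limit of the exact interval 1.18). Aggrecan reads were thus at or near 0 in both libraries.

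Comp encodes cartilage oligomeric matrix protein, a thrombospondin relative that binds collagen in cartilage and tendon. It lies on chromosome 8 from 70373548 to 70382066 and had 96 counts in PreASKO and 217 in floxed, or 3.29 CPM (2.67 to 4.02) and 5.75 CPM (5.02 to 6.57). It was 1.75-fold lower in PreASKO (1.37 to 2.25). The repeat-distributed counts, 85 in PreASKO and 199 in floxed, had a ratio of 0.536 (0.411 to 0.694). Its raw counts, 11 in PreASKO and 18 in floxed, gave 0.814 (0.347 to 1.82). Matn3, a matrilin gene of cartilage on chromosome 12 from 8947929 to 8972028, had 1 count in PreASKO and 0 in floxed.

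**Figure D2:**
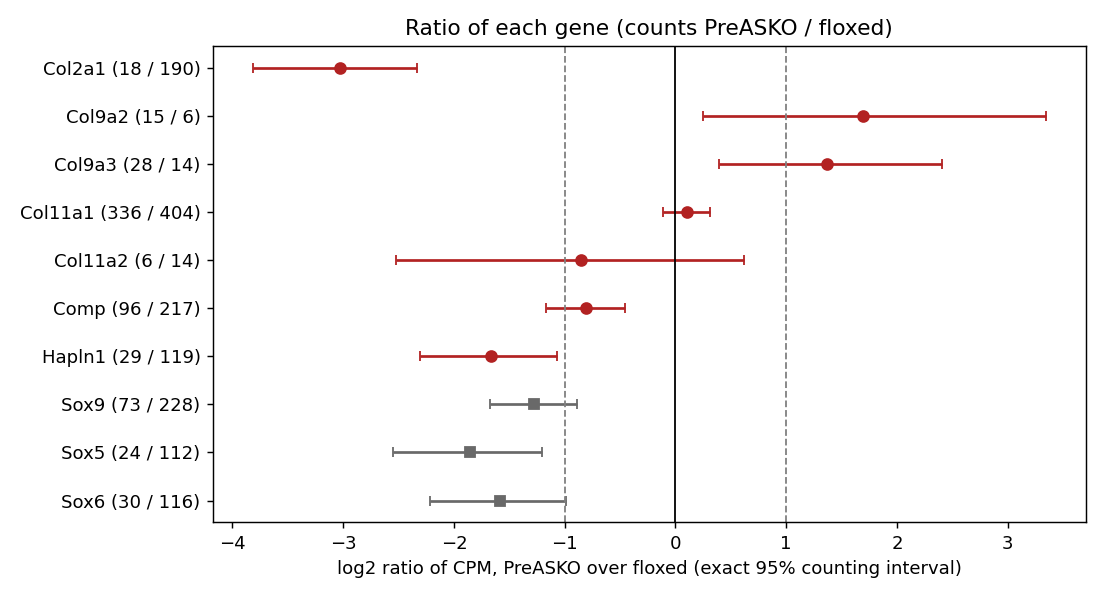
Log2 ratio of CPM, PreASKO over floxed, with the exact 95% counting interval, for the 7 cartilage genes whose larger count was 10 or more (red circles) and Sox9, Sox5 and Sox6 (grey squares); counts are given beside each name and dashed lines mark 2-fold. Col2a1 lies at -3.03 and Col9a2 at 1.69, with Col11a1 at 0.10 between them.

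Per kilobase of annotated exon, Comp and Col11a1 led in both libraries. Comp stood at 1.11 CPM per kb in PreASKO (0.898 to 1.35) and 1.94 in floxed (1.69 to 2.22), and Col11a1 at 0.904 in PreASKO (0.810 to 1.01) and 0.841 in floxed (0.761 to 0.927). The intervals of these 2 genes overlap in PreASKO but not in floxed. Next in PreASKO came Col9a3 at 0.249, Hapln1 at 0.168 and Col9a2 at 0.166 CPM per kb, whose intervals overlap, and then Col2a1 at 0.0668. In floxed the next were Col2a1 at 0.545 and Hapln1 at 0.535 CPM per kb, with overlapping intervals, well above Col9a3 at 0.0964. The order of Col2a1 and Col9a3 was thus turned between the libraries, with intervals of 0.0396 to 0.106 and 0.166 to 0.360 in PreASKO and of 0.470 to 0.629 and 0.0527 to 0.162 in floxed. Exon length was the union over GENCODE M21 transcripts, and the transcripts in use are not known.

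Of the 7 genes whose larger count was 10 or more, 2 were over 2-fold lower in PreASKO, against a background of 18.2% of 18911 genes, and 2 were over 2-fold higher, against 9.08%. Among genes with 100 or more counts, 2 of 4 were over 2-fold lower, against 8.00% of 12982, and 0 were higher, against 3.40%. By any amount, 54.2% of the 18911 genes and 51.5% of the 12982 were lower in PreASKO. These shares are also the background for the counts in other gene lists below. The median log2 ratio of the 7 was -0.81, against -0.07 over all 18911 genes. Both counts and the median rest on few genes, and the 3 genes under 10 counts are left out of them. Summed over all 10 genes there were 536 counts in PreASKO and 964 in floxed, or 18.4 and 25.6 CPM, a ratio of 0.719 (0.645 to 0.799). Without Col2a1 the sum gave 0.865 (0.772 to 0.968), and without Col11a1 it gave 0.462 (0.391 to 0.543).

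**Figure D3:**
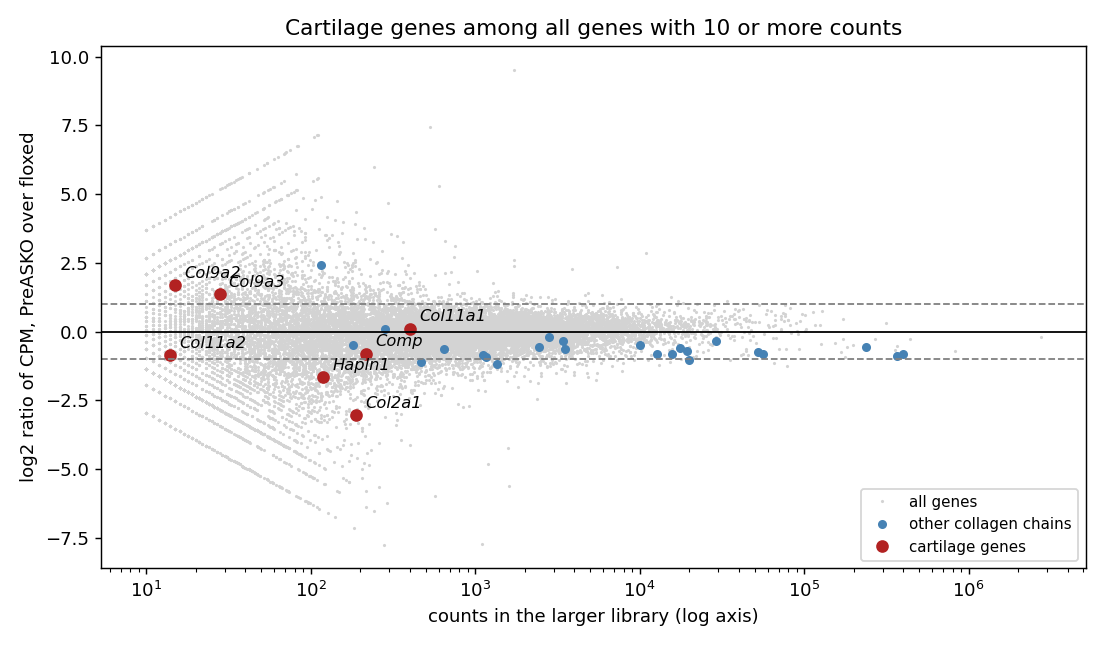
Log2 ratio of CPM, PreASKO over floxed, against the counts in the larger library (log axis) for all 18911 genes with 10 or more counts, with the 7 cartilage genes in red and 24 other collagen chain genes with 100 or more counts in blue; dashed lines mark 2-fold. Col2a1 lies below each of the blue points, and a gene at 0 in 1 library is drawn with 3 counts in its place.

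The partners of Sox9 were lower with it. Sox5 had 24 counts in PreASKO and 112 in floxed, a ratio of 0.277 (0.170 to 0.433), and Sox6 had 30 in PreASKO and 116 in floxed, a ratio of 0.334 (0.216 to 0.503). All counts of Sox5 and Sox6 were repeat-distributed, whereas all counts of Sox9 were raw. Scaled to the stromal matrix markers the ratios were 0.488 for Sox5 and 0.589 for Sox6. Of 17 other cartilage genes with 10 or more counts, 3 were over 2-fold lower, against 18.2% of 18911 genes, and 5 higher, against 9.08%. Another 9 were within 2-fold, and the median log2 ratio of the 17 was -0.19. Past 2-fold, the lower ones were Matn4, Lect1 and Xylt1, and the higher ones Epyc, Hapln3, Prg4, Mia and Cytl1. Lect1 had only 2 counts in PreASKO and 11 in floxed, a ratio of 0.235 (0.0253 to 1.08), within counting error of equal levels. The most divergent with 20 or more counts were Matn4, a matrilin gene, with 6 counts in PreASKO and 111 in floxed, and Epyc, a small proteoglycan gene of growth cartilage, with 64 in PreASKO and 11 in floxed. Hapln3, a link protein gene, had 392 counts in PreASKO and 95 in floxed, a ratio of 5.33 (4.25 to 6.75).

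Hapln1 and Hapln3, both link protein genes, stood on opposite sides of equal levels, also when scaled to the stromal matrix markers. Hapln4 had 0 counts in PreASKO and 62 in floxed. It was 16.0-fold lower with the PreASKO library set to a floor of 3 counts (the exact interval ends at 12.6-fold). Vcan, which encodes versican, the aggrecan relative of soft tissue, stood at 136 CPM in PreASKO and 245 CPM in floxed, a ratio of 0.555 (0.534 to 0.576), or 0.977 when scaled to the stromal matrix markers. Of the 5 genes of hyalectans and link proteins outside the 10 with enough counts, 3 were over 2-fold lower, Hapln4, Ncan and Bcan, and 1, Hapln3, over 2-fold higher. Ncan had 0 counts in PreASKO and 10 in floxed, and Bcan 3 in PreASKO and 13 in floxed. Among relatives of Comp and Matn3, 5 of 6 were lower, against 54.2% of all 18911 genes, and 1 of them, Matn4, over 2-fold. Thbs3 had a ratio of 0.526 (0.489 to 0.564) and Thbs2 one of 0.541 (0.509 to 0.575), close to the 0.572 of Comp. Stromal matrix markers lay near that level too, and scaled to them Thbs3 was at 0.93, Thbs2 at 0.95 and Comp at 1.01. With raw counts alone Thbs3 was at 0.73, and with repeat-distributed counts alone at 0.48. Thbs4 and Matn2 lay nearer to equal levels, at 0.781 and 0.779, and Thbs1 was higher, at 1.345.

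Other collagen chains give the setting in which Col2a1 was low. Of 24 collagen chain genes outside the 10 with 100 or more counts, 22 were lower in PreASKO, against 51.5% of all 12982 such genes. Of the 24, 3 were over 2-fold lower, against 8.00%, and the median log2 ratio was -0.68. Scaled to the summed stromal matrix markers, which include 8 of these chains, 10 of the 24 were lower and 0 over 2-fold. Col2a1, at -3.03, lay below all 24. With the limit lowered to 10 counts, a choice made after the values were seen, there were 33 such chains, and 3 lay below Col2a1, Col4a4 with 1 count in PreASKO and 44 in floxed, Col4a3 with 2 in PreASKO and 71 in floxed and Col17a1 with 1 in PreASKO and 23 in floxed. Among the 24 with 100 or more counts the 3 nearest to it were Col4a5 at -1.18, Col28a1 at -1.12 and Col5a1 at -1.02, a likeness over 2 libraries only. All 7 fibrillar chains outside cartilage were lower, 2 of them over 2-fold, Col5a1 and Col24a1. Col24a1 had 7 counts in PreASKO and 31 in floxed, and Col3a1 stood at 5270 CPM in PreASKO and 9772 CPM in floxed. Of 5 fibril-associated chains outside type IX, 4 were lower and 0 passed 2-fold, with Col14a1, Col16a1 and Col12a1 at ratios of 0.566, 0.648 and 0.673. Under the scaling to stromal matrix markers Col16a1 and Col12a1 turned to 1.14 and 1.19. Type IX chains, with their summed ratio of 2.91, stood on the other side of equal levels. They were not alone there, since among the 24 chains Col4a6 lay at a log2 ratio of 2.42 and Col8a1 at 0.10.

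**Figure D4:**
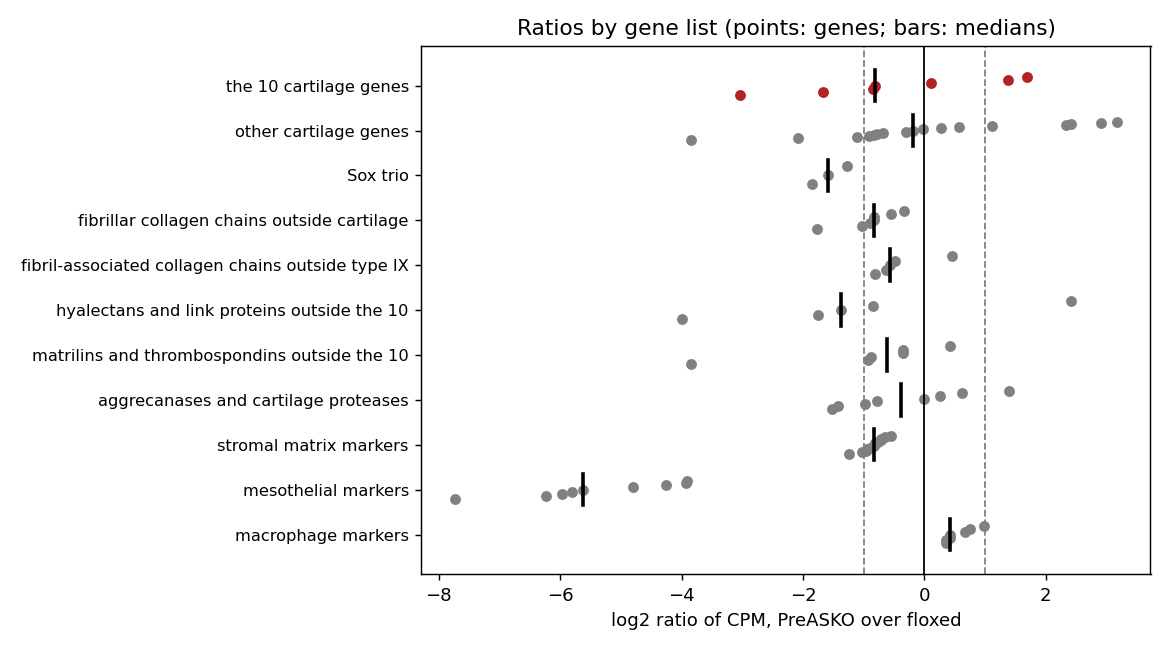
Log2 ratio of CPM, PreASKO over floxed, by gene list; each point is a gene whose larger count was 10 or more, the upright bars are medians and dashed lines mark 2-fold. The 10 cartilage genes (7 drawn) spread from -3.03 to 1.69, whereas the stromal matrix markers lie close together around -0.82.

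Genes that break down cartilage matrix went both ways. Of 8 aggrecanase and protease genes, 2 were over 2-fold lower, against 18.2% of 18911 genes, and 1 over 2-fold higher, against 9.08%. Adamts4 and Adamts1, which cut aggrecan, had ratios of 0.347 (0.277 to 0.430) and 0.371 (0.346 to 0.398), and Mmp13, a collagenase of type II collagen, had one of 2.64 (1.99 to 3.52). Scaled to the stromal matrix markers Adamts4 and Adamts1 were at 0.610 and 0.653, inside 2-fold.

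Markers of other cells also differed between the libraries, in both directions. All 13 stromal matrix markers were lower in PreASKO, 2 of them over 2-fold, with summed levels of 22920 CPM in PreASKO and 40360 CPM in floxed. The most divergent were Postn, Col5a1 and Lum, at ratios of 0.423, 0.493 and 0.512. Scaled to that sum in place of the library total, Col2a1 had a ratio of 0.216, Hapln1 0.555, Comp 1.01, Col11a1 1.89, Col9a3 4.55 and Col9a2 5.69. Comp then lies at equal levels, and Hapln1 inside 2-fold, while Col2a1 stays past it. All 9 mesothelial markers were over 2-fold lower, at a summed 4.94 CPM in PreASKO and 177 CPM in floxed, with Upk1b at 0 in PreASKO. Msln had 4 counts in PreASKO and 1104 in floxed, and Muc16 had 7 in PreASKO and 570 in floxed. All 7 measured macrophage markers were higher, 0 of them over 2-fold, at a summed 12450 CPM in PreASKO and 8165 CPM in floxed. Cd163, Lyz2 and Csf1r had ratios of 1.96, 1.69 and 1.58. The part of these cell types in the values of the 10 cartilage genes was not tested, and in sorted bulk cells fewer cells of a type and less RNA per cell cannot be told apart.

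Tendon, bone and muscle markers went no single way. Of 4 tendon genes with 10 or more counts, Fmod was over 2-fold lower, at 137 counts in PreASKO and 728 in floxed, and Tnmd over 2-fold higher, at 71 in PreASKO and 41 in floxed, while Thbs4 had a ratio of 0.781, which turned to 1.37 when scaled to the stromal matrix markers. The tendon factor gene Mkx had 0 counts in PreASKO and 1 in floxed. Of 4 bone genes, 1 was over 2-fold higher, Dmp1 with 11 counts in PreASKO and 0 in floxed, and Spp1, Runx2 and Alpl had ratios of 0.819, 1.07 and 1.01. Runx2 was at 1.25 with raw and 0.574 with repeat-distributed counts alone, Spp1 turned to 1.44 and Alpl moved to 1.78 under stromal scaling, while the bone gene Bglap had 0 counts in PreASKO and 1 in floxed. Skeletal muscle markers summed to 40.6 CPM in PreASKO and 39.5 CPM in floxed, with Myh4, Myl1 and Des at ratios of 2.90, 0.410 and 0.485, or 5.11, 0.721 and 0.854 when scaled to the stromal matrix markers. Of the Schwann cell markers, Sox10 had a ratio of 3.58 and L1cam one of 2.27.

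For 5 of the 10 genes the ratios here lay within 1% of the fold in the authors' deposited table, as they did for 81.6% of 14618 genes whose smaller count was at least 20. Col11a1 and Col11a2, given above, differed from it with reads in both libraries. For Matn3, Acan and Col9a1 the authors' deposited table gives folds of 42.3, 47.3 and 59.8, on 1, 5 and 2 counts in PreASKO and 0 in floxed. Of 1201 genes with 1 to 5 counts in PreASKO and 0 in floxed, 1191 have a fold over 10 in the authors' deposited table. The folds of Matn3, Acan and Col9a1 are of that kind.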

How the data were processed

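RNA was sequenced from 1 PreASKO and 1 floxed library, grouped by the genotype label. The authors deposited raw counts, which are whole numbers, and repeat-distributed values, which are estimated counts, with a fold ratio and its log2, per the file headers. Per the submitters' processing notes, reads were placed on mm10, while the aligner and the counter are not given in these sources. The repeat-distributed columns, 50.6% of PreASKO and 49.1% of floxed counts, were taken for reads with several matches in the annotation, an inference from their name.

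Both counts were summed, rounded and divided by the library total (29172653 in PreASKO, 37705236 in floxed). Ratios carry exact conditional intervals and levels exact Poisson intervals, both at 95% and for counting error only. A count of 0 was replaced by 3, and no ratio is given where a count was 0 and the larger was 3 or fewer. No p-value was computed. The calculation was tested on simulated data. Other scalings (TMM in edgeR 4.0.16 under R 4.3.3, median-of-ratios, stromal matrix markers), count columns, pseudocounts and filters were tried. Python 3.11.15, numpy 2.4.6, scipy 1.17.1 and pandas 2.3.3 were used. Promoters were RefSeq's on GRCm38.p6; exon lengths and overlapping genes were from GENCODE M21.

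Genes and lists were chosen with earlier results of these data known. Named were the 10 genes, Sox9, Sox5, Sox6, the 3 genes of each list with the largest absolute log2 ratio among those with 20 or more counts, and the 3 collagen chains nearest to Col2a1. A gene this rule named is not reported here. Genes named outside that rule, after their values were seen, were Dlk1, Tcfl5, Gm8546, Mkx, Bglap, Dmp1, Lect1, Col4a3, Col4a4, Col17a1, Xylt1, Ncan, Bcan, Prg4, Cytl1, Mia, Chad and Col27a1. Col4a6, Col8a1, Matn2 and Thbs1 were also named in this way.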

Additional observations from a re-analysis of the deposited data

How the results depend on the processing

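With 1 library a group, leaving one out gives no value. No paired analysis was possible because each group holds 1 library. Library-size alternatives TMM and median-of-ratios shifted log2 ratios by 0.04 and kept both counts of cartilage genes past 2-fold, 2 lower and 2 higher.

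Scaling to the stromal matrix markers shifted all log2 ratios by 0.82. It left 1 cartilage gene over 2-fold lower and 2 over 2-fold higher and put the median log2 ratio at 0.0101. Among all 18911 genes tested, 1841 were lower and 6489 higher. This scaling turned Comp to a ratio of 1.01, Col12a1 to 1.19, Col16a1 to 1.14, Spp1 to 1.44 and Thbs4 to 1.37. Raw counts alone left 3 cartilage genes, with 0 lower, 1 higher and a median of -0.0203, beside 2328 lower and 1472 higher of 11586 genes. Repeat-distributed counts alone left 6 cartilage genes, with 2 lower and 1 higher, beside 1963 lower and 796 higher of 11863 genes. A pseudocount of 1 CPM left 2 lower and 0 higher and a median of -0.19, since it draws low genes towards equal levels. Of 18911 genes, 1124 were then lower and 587 higher. A pseudocount of 0.1 CPM gave a median of -0.62. With 100 or more counts 2 of 4 cartilage genes were lower and 0 higher, and the median was -1.24. Of 12982 genes with such counts, 1039 were lower and 442 higher. With no filter the median was -0.35.

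Of 57 recomputed ratios of the cartilage genes, 49 stayed inside the counting interval, 8 left it, and 2 crossed equal levels, Comp under stromal scaling and Col11a1 at 0.986 with raw counts alone, inside its interval. Staying inside says little for low genes. The interval of Acan has no upper end, so the authors' fold of 47.3 counts as inside. Those of Col9a2 and Col11a2 are wide. Depth limits Col9a2, Col9a3, Col11a2, Acan, Col9a1 and Matn3, each with 28 counts or fewer.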

Other observations

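Cartilage genes outside the 10 went both ways. Prg4, which encodes the joint lubricant lubricin, had 7284 counts in PreASKO and 1873 in floxed, a ratio of 5.03. Cytl1, which encodes a small secreted protein of cartilage, had 396 counts in PreASKO and 238 in floxed, a ratio of 2.15, and Mia, a secreted protein gene of chondrocytes, had 14 in PreASKO and 2 in floxed, too few for a firm ratio. Chad, the chondroadherin gene, had 48 counts in PreASKO and 42 in floxed, a ratio of 1.48 (0.956 to 2.29), within counting error of equal levels. On the other side, Col27a1, a fibrillar collagen gene of cartilage, had 475 counts in PreASKO and 1162 in floxed, a ratio of 0.528. These 5 genes were named after their values were seen.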
